A study of Mus musculus with 6 samples.

Results

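The genes described here are 9 transcription factors and regulators grouped as myeloid (granulocyte and monocyte) fate factors. The group holds the C/EBP family members Cebpa, Cebpb, Cebpd, Cebpe and Cebpg, the ETS factors Spi1 (PU.1) and Spib, the repressor Gfi1, and Id2. They were taken by symbol from the probe annotation of the array, with 1 probe set for each gene, out of 19937 genes measured. The EVI1 cells were Lin- hematopoietic progenitors (cells depleted of those with mature lineage markers) of C57BL6 mice that carry Rosa26rtTA, a ubiquitous transactivator that needs doxycycline to switch on tetracycline promoters; they received a lentiviral vector with a tetracycline promoter driving EVI1 and, through an internal ribosome entry site, EGFP. The EGFP control cells had the same strain, transactivator and doxycycline, and a vector with EGFP alone. Both were grown in serum-free medium with interleukin 3 at 20 ng/ml and stem cell factor, interleukin 11 and Flt3 ligand at 50 ng/ml each. They were transduced 24 h after isolation and given doxycycline at 1 µg/ml 24 h after the vector. EGFP-positive cells were sorted 20 h after doxycycline according to the series text, while the treatment protocol puts the RNA preparation at 24 h. There were 3 arrays labelled EVI1 and 3 labelled EGFP, and the labels do not say whether replicates were separate animals, cultures or transductions. The question asked of these genes was which of them differ in transcript level after about a day of EVI1 expression.

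C/EBP proteins are basic leucine zipper factors that bind DNA as dimers. C/EBPα drives the step from early progenitor to granulocyte and monocyte precursor, C/EBPε drives late granulocyte maturation, and C/EBPβ takes over when granulocytes are made in response to infection. PU.1 is needed for monocytes, granulocytes and B cells and acts by its dose, while its relative Spi-B is best known from B cells and plasmacytoid dendritic cells. GFI1 represses monocyte genes during granulocyte formation, and ID2 lacks a DNA-binding region and holds E proteins away from DNA.

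The values are log2 intensities, so a difference of 1 is a doubling, and every difference below is EVI1 minus EGFP with its standard error (SE) from limma. Rose and fell are used where limma's p, adjusted over all genes by the Benjamini-Hochberg method, was under 0.05. Array correlations were 0.976 to 0.990 within groups and 0.942 to 0.959 between them, and no array was a copy of another. Mecom, the locus that encodes EVI1, showed no rise with the EVI1 label: the brighter of its probe sets had 6.29, 6.18 and 6.49 there, against 6.39, 7.53 and 6.86 in the EGFP arrays (difference -0.60 ± 0.26, limma adjusted p = 0.166; without EGFP replicate 1 -0.87, adjusted p = 0.0306). The dimmer Mecom probe set had 6.39, 6.28 and 6.37 in EVI1 arrays, against 6.66, 6.63 and 6.45 in EGFP arrays (difference -0.23). There every EVI1 value was below every EGFP value. Whether these probes read the vector's EVI1 sequence was not tested, so groups and directions rest on the labels. Both group means were below 6.99 in EVI1 and 6.95 in EGFP arrays, the 95th percentiles of 1027 olfactory receptor genes, a level used here to mark dim signal.

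Of the 9 factors, 4 rose (Spib, Cebpd, Spi1 and Cebpb), 2 fell (Id2 and Gfi1) and 3 did not pass (Cebpa, Cebpg and Cebpe). Over all genes 18.2% were called, 9.06% higher and 9.18% lower in EVI1. With the replicate number as a block the same 4 rose and the same 2 fell, where 21.9% of all genes were called, 10.9% higher and 11.0% lower. The groups did not overlap for 7 of the 9 factors, 5 with EVI1 above and 2 with EVI1 below, against 32.6% of all genes (16.1% above and 16.5% below). Among the 7684 genes whose mean level lay within the range of these factors, 30.0% were called. The 9 differences had a median of 0.25, against 0.0060 over all genes. Spib and Id2 were the members outside the range that held the central 95% of all genes' differences, -1.12 to 1.08. In bulk RNA, fewer cells of a type and less RNA per cell cannot be told apart.

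**Figure D1:**
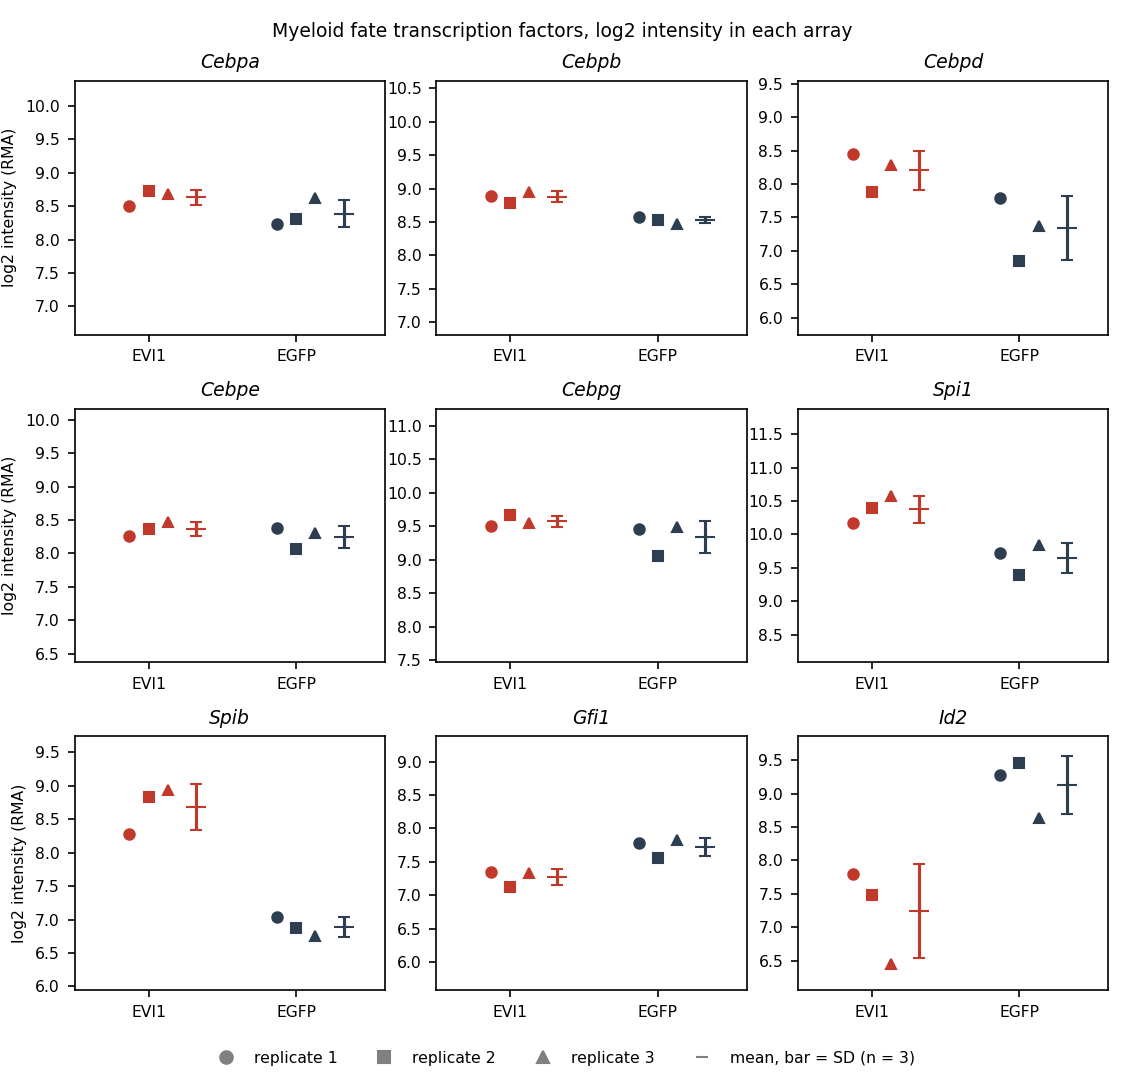
Log2 intensity of the 9 factors in each array, EVI1 left and EGFP right, with 1 symbol per replicate number and the mean with its SD (n = 3) beside the points; every panel spans the same number of log2 units. The groups are farthest apart for Spib (8.29 to 8.93 in EVI1, 6.75 to 7.04 in EGFP) and Id2 (6.46 to 7.79 in EVI1, 8.64 to 9.46 in EGFP).

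Of the 9 genes, 6 had an entry in the RefSeq promoter table (build GRCm38.p6), with 7 start sites in all; Spi1, Cebpd and Cebpe had none. The 250 bases before the start are shown for Spib and Id2, the genes with the largest rise and fall among the 9, and for the other gene that fell, Gfi1, at the one of its 2 start sites that held a motif match. They run 5′ to 3′ on the gene's strand, with motif matches in capitals. The Spib window lies at chr7:44532072-44532321 (minus strand), that of Id2 at chr12:25096093-25096342 (minus) and that of Gfi1 at chr5:107725806-107726055 (minus).
Spib: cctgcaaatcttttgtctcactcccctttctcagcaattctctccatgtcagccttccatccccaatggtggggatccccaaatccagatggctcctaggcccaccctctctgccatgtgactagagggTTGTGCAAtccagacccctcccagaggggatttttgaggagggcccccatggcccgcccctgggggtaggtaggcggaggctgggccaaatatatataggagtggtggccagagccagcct
Id2: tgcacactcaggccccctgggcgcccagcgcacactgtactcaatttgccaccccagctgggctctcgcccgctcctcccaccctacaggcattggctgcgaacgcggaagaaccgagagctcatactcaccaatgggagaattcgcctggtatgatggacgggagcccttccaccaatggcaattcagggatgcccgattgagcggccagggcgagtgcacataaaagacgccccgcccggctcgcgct
Gfi1: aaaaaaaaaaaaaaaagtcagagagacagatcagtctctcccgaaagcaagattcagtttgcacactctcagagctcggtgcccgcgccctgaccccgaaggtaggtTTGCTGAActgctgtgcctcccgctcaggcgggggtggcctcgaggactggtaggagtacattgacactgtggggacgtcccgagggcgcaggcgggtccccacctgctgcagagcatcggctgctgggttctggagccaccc
The motifs searched, on both strands, were TTGCNNAA for C/EBP factors, GAGGAA for PU.1, and AAGATAA and GATGAG for the first and second zinc finger domains of EVI1. The C/EBP letters were found in Spib, beginning 121 bases before the start as TTGTGCAA, a match on the opposite strand, and in Gfi1, beginning 143 bases before the start as TTGCTGAA. The other 3 motifs had no match in the 7 windows. Over all 32851 windows of this length the shares with a match were 9.56% for the C/EBP letters, 23.3% for PU.1, and 3.10% and 10.1% for the EVI1 domains. No match overlapped another, and a match is a description of these letters, not evidence of binding.

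Among the C/EBP genes, Cebpd and Cebpb rose and Cebpa, Cebpg and Cebpe did not pass, though all 5 estimates were above 0. Cebpd, an acute-phase member of the family induced by cytokines, had 8.45, 7.88 and 8.29 in EVI1 arrays, against 7.80, 6.84 and 7.38 in EGFP arrays. Every EVI1 value was above every EGFP value, with the lowest EVI1 array only just above the highest EGFP array. The difference was 0.87 ± 0.24, a 1.83-fold rise (limma adjusted p = 0.0420). The call was lost without EGFP replicate 2 (difference 0.62), EGFP replicate 3, EVI1 replicate 1 or EVI1 replicate 3, where limma's adjusted p was between 0.0576 and 0.146. With the replicate number as a block the SE was 0.11, and the differences within numbered pairs were 0.66, 1.04 and 0.91.

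Cebpb showed a small and even shift. Its values were 8.89, 8.79 and 8.95 in EVI1 arrays and 8.57, 8.53 and 8.48 in EGFP arrays, so the groups did not overlap. The rise was 0.35 ± 0.10, or 1.28-fold (limma adjusted p = 0.0445). It passed in none of the 6 fits that left out an array (adjusted p between 0.0656 and 0.136), nor with a trended, robust variance (0.0825), although the difference stayed between 0.32 and 0.40 without any 1 array. With the replicate block and with median centring limma's adjusted p was 0.0498 and 0.0495, just under the threshold.

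Cebpa, the family member that opens the granulocyte and monocyte path, did not pass the test. It had 8.51, 8.72 and 8.68 in EVI1 arrays and 8.23, 8.31 and 8.62 in EGFP arrays, and EGFP replicate 3 lay within the EVI1 range. The difference was 0.25 ± 0.13 (limma adjusted p = 0.282), with a 95% interval of -0.06 to 0.55. Cebpe had 8.26, 8.37 and 8.47 in EVI1 arrays, against 8.38, 8.06 and 8.30 in EGFP arrays, and its groups overlapped. Its difference was 0.12 ± 0.12 (adjusted p = 0.621, 95% interval -0.16 to 0.40). Neither interval reaches a 2-fold fall.
Cebpg, a short family member without a transactivating region that pairs with the others and with ATF4, had 9.50, 9.66 and 9.55 in EVI1 arrays, against 9.46, 9.06 and 9.49 in EGFP arrays. The groups did not overlap, but were only 0.012 apart at their closest, and the difference of 0.24 ± 0.14 did not pass (adjusted p = 0.336). Its pairs differed by 0.05, 0.61 and 0.06, the largest in replicate 2.

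Both ETS factors rose, with the larger estimate for Spib. Spi1 had 10.17, 10.40 and 10.57 in EVI1 arrays and 9.72, 9.40 and 9.84 in EGFP arrays. The groups were apart by 0.33 at their closest, and each EVI1 array was higher than the EGFP array of its number, by 0.45, 1.00 and 0.73. The rise was 0.73 ± 0.15, or 1.66-fold (limma adjusted p = 0.0128). It lost its call without EVI1 replicate 3 (0.63, adjusted p = 0.0590) and held in the other 5 fits that left out an array.
Spib had 8.29, 8.83 and 8.93 in EVI1 arrays, against 7.04, 6.87 and 6.75 in EGFP arrays. The EGFP mean of 6.88 ± 0.15 (SD, n = 3) was under the olfactory receptor level, so the fold change can be understated, while the EVI1 mean of 8.68 ± 0.35 (SD, n = 3) was above it. The rise was 1.80 ± 0.18, or 3.47-fold (limma adjusted p = 0.000438), and ranked 176 among 19937 genes ordered from the largest rise. It passed in all 6 fits that left out an array, at 1.67 to 1.99.
Markers of cells known for Spib were measured beside it. In the B cell list 1 of 4 measured genes rose (Cd79b, a B cell receptor subunit, 1.22 ± 0.20). Over all genes 9.06% rose and 9.18% fell. Pax5 differed by -0.02 ± 0.11 (limma adjusted p = 0.941), and Cd79a and Ms4a1 were dim in both groups. The array means of the list were 6.98 to 7.26 in EVI1, against 6.66 to 6.80 in EGFP. In the dendritic cell list 2 of 6 fell (Itgax and H2-Ab1), while Cd74, the invariant chain of class II molecules, differed by 0.78 ± 0.25 (limma adjusted p = 0.0636) and rose with the replicate block (0.00299). The list's array means were 7.85 to 8.07 in EVI1 and 7.997 to 8.23 in EGFP, and Siglech, a plasmacytoid marker, differed by -0.27 ± 0.15 (adjusted p = 0.289). Their part in the Spib result was not tested.

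Id2 fell, and its groups lay far apart. Its values were 7.79, 7.48 and 6.46 in EVI1 arrays, against 9.28, 9.46 and 8.64 in EGFP arrays. Replicate 3 was the lowest of its group on both sides, and the groups were 0.85 apart at their closest. The fall was -1.88 ± 0.34, that is, 3.69-fold higher in EGFP (limma adjusted p = 0.00684), which was place 72 among all genes ordered from the largest fall. With the replicate block the SE was 0.15, and the pairs differed by -1.49, -1.97 and -2.19. The call held without each single array, and the estimate was -1.49 without EVI1 replicate 3.

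Gfi1 fell slightly. It had 7.35, 7.13 and 7.33 in EVI1 arrays and 7.78, 7.56 and 7.82 in EGFP arrays, with no overlap. The 3 pairs differed by -0.43, -0.43 and -0.50, and the fall was -0.45 ± 0.12 (limma adjusted p = 0.0327), 1.37-fold higher in EGFP. The call was lost in 5 of the 6 fits that left out an array, all except the one without EGFP replicate 2, with adjusted p between 0.0669 and 0.118 and differences of -0.49 to -0.38.

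**Figure D2:**
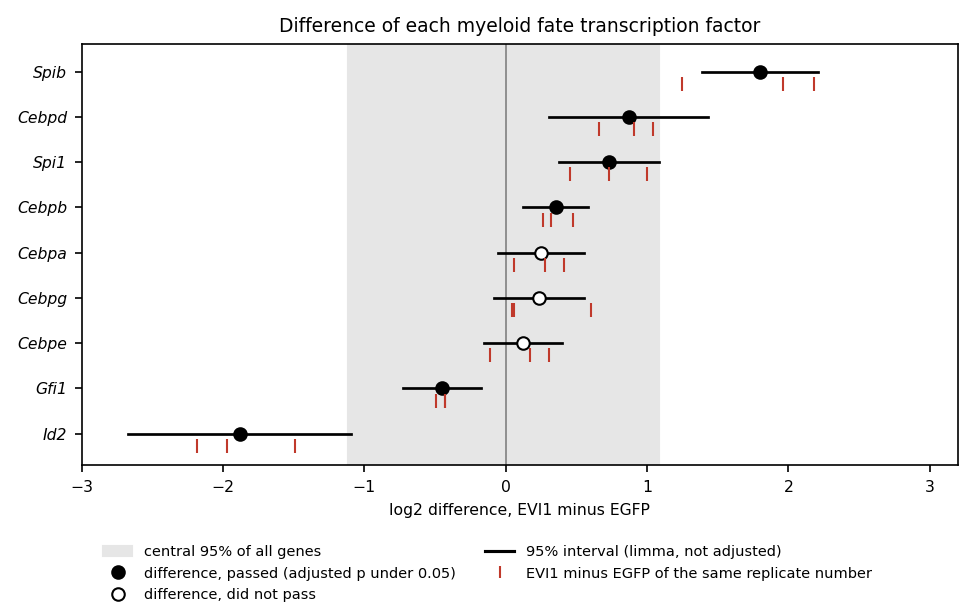
Log2 difference, EVI1 minus EGFP, of the 9 factors with the 95% interval from limma, short red marks for the 3 pairs of arrays with the same replicate number, and a grey band for the central 95% of all genes (-1.12 to 1.08). Spib and Id2 lie outside the band, and all 3 pairs agree in sign for every factor except Cebpe, where replicate 1 was lower in EVI1 (-0.11).

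**Figure D3:**
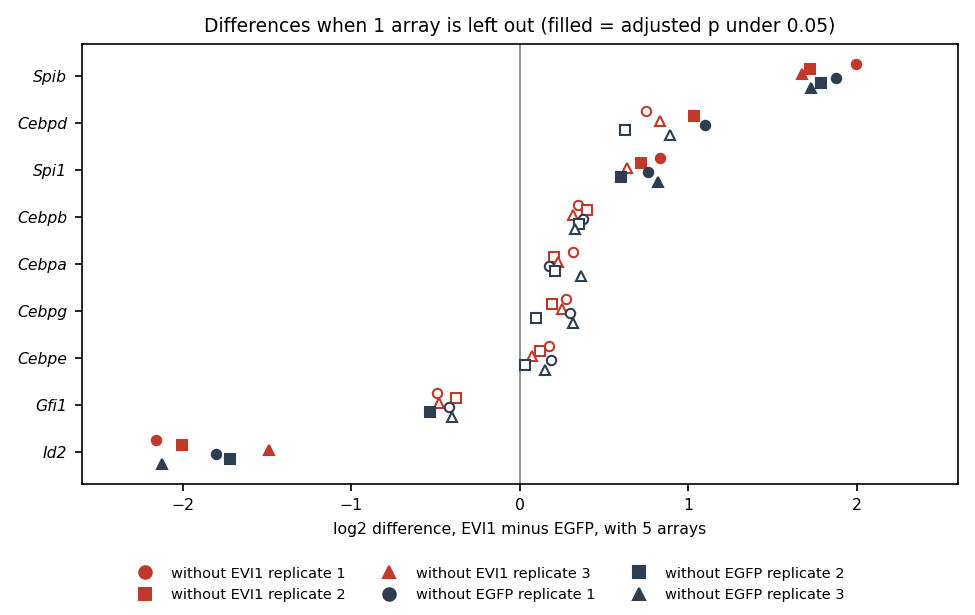
Log2 difference, EVI1 minus EGFP, of the same factors in the 6 fits that each left out 1 array, filled where the adjusted p was under 0.05; colour and symbol name the array left out. Spib and Id2 are filled in all 6 fits, Spi1 in 5, Cebpd in 2, Gfi1 in 1 and Cebpb in 0.

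Differences between the factors were compared within each array, which no shift of a whole array's log2 values can alter. The smallest exact two-sided permutation p that 3 against 3 arrays allow is 0.1, or 0.15 after adjustment over the 36 pairs of factors compared, so no pair can pass. The groups did not overlap for 24 of the 36 pairs, and the share for pairs of other genes was not computed. The largest shift was 3.68, for Spib minus Id2. The pairs below are examples. For Spi1 minus Spib the within-array difference was 1.88, 1.57 and 1.64 in EVI1 arrays, against 2.68, 2.53 and 3.09 in EGFP arrays, a shift of -1.07 (exact permutation p = 0.1), meaning that Spib moved up by more than Spi1 did in these arrays. Cebpd minus Cebpe was 0.19, -0.49 and -0.18 in EVI1, against -0.58, -1.22 and -0.92 in EGFP arrays, a shift of 0.75 (exact permutation p = 0.1). For Cebpa against Cebpb the shift was -0.10 and the groups overlapped (exact permutation p = 0.6).

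Genes whose 6 values ran most like a called factor were found by the root mean square difference of centred log2 values, among 17241 genes. The values were not scaled, so the measure favours genes with a group difference of the same size. Its values are not comparable between factors, and whether the matches mean more than that was not tested. The closest genes were Ctla2a, Pilrb1 and Havcr2 for Id2 (0.150, 0.182 and 0.229) and Zc2hc1a, Calhm6 and Dhrs1 for Spib (0.105, 0.147 and 0.149). For Spi1 they were Il7, Sh3bgrl and Ube2e3 (0.0580, 0.0581 and 0.0649), and for Gfi1 they were Tomm6, Pcna and Sfpq (0.0393, 0.0499 and 0.0508). For Cebpd they were Amn1, Aig1 and Csta2 (0.0842, 0.116 and 0.120), and for Cebpb they were Defb26, Vwf and Crk (0.0273, 0.0343 and 0.0346). Il7 and Defb26 were dim in both groups, and Defb26, Amn1 and Tomm6 did not pass limma's test without the block.

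Partners and regulators of the C/EBP proteins went both ways. Among 17 measured genes there were 4 that rose, 2 that fell and 11 that did not pass (median -0.02). That is 35.3% called, against 18.2% of all genes and 30.0% of genes within the level range of the 9 factors. Trib1, a pseudokinase that directs C/EBPα to degradation through the ubiquitin ligase COP1, rose by 0.92 ± 0.13 (limma adjusted p = 0.00218), with 7.87 ± 0.14 in EVI1 and 6.95 ± 0.18 in EGFP arrays (SD, n = 3), the EGFP mean just under the dim level. Its relative Trib2, with the same action on C/EBPα, differed by -0.26 ± 0.14 (adjusted p = 0.300) and Cop1 by 0.02 ± 0.11 (0.950). Atf4, a stress factor that pairs with C/EBP proteins, fell by 0.86 on the log2 scale (adjusted p = 0.00846). Batf2 (0.57), Trib3 (0.38) and the AP-1 subunit Junb (0.42) rose, and Batf3 (-0.36) fell. With the replicate block Batf3 did not pass (adjusted p = 0.0529), and Jun, another AP-1 subunit (-0.62, without the block 0.204), fell (0.0106). Without EGFP replicate 1 or EVI1 replicate 3, 2 of the 17 were called, where 3023 and 2289 of all 19937 genes were. The count was 3 without EGFP replicate 3, EVI1 replicate 1 or EVI1 replicate 2, where 2557, 2672 and 2645 of all genes were called.

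Among partners and antagonists of PU.1 and other ETS factors, 1 of 19 rose, 5 fell and 13 did not pass. The median was -0.23, and 31.6% were called, against 18.2% of all genes. That is near the 30.0% called among genes within the level range of the 9 factors. The gene that rose was Spic, the closest relative of Spi1 and Spib among those measured, by 4.58 ± 0.42 (limma adjusted p = 0.000343), so all 3 genes of that ETS subfamily were higher in EVI1. Those that fell were Myb, a progenitor factor (-1.61 ± 0.16), Runx1 (-0.81 ± 0.13) and its partner Cbfb (-0.48 ± 0.11), which together act on the upstream enhancer of Spi1, Ikzf1 (-0.53 ± 0.11) and Etv6 (-0.39 ± 0.10). Irf8 (-0.24 ± 0.12) and Irf4 (-0.38 ± 0.15), which bind DNA together with PU.1, did not pass, nor did Gata1 (0.22) and Gata2 (-0.08), which oppose it. With the replicate block Tal1 and Elf4 also rose and Jun fell, for 3 up and 6 down. Without EGFP replicate 2, 10 of the 19 were called, where 4098 of all 19937 genes were. The count was 3 without EGFP replicate 3 or EVI1 replicate 2, where 2557 and 2645 of all genes were called.

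Of 10 partners and corepressors of GFI1, none rose, 2 fell and 8 did not pass, with a median of -0.02. The 20.0% called was close to the 18.2% of all genes, and below the 30.0% within the level range of the 9 factors. Gfi1b, its paralog in erythroid and megakaryocyte cells, had 8.61 ± 0.08 in EVI1 and 9.46 ± 0.43 in EGFP arrays (SD, n = 3), a fall of -0.84 ± 0.20 (limma adjusted p = 0.0213), and the histone deacetylase Hdac2 fell by 0.50 on the log2 scale. The demethylase Kdm1a, which GFI1 recruits, differed by -0.01 ± 0.10 and its partner Rcor1 by 0.16 ± 0.15, and neither passed. The histone methyltransferase Ehmt2 differed by 0.28 ± 0.13 and did not pass. Hdac3, another deacetylase, differed by -0.49 ± 0.25 (adjusted p = 0.257) and fell with the replicate block (0.0291), where 3 of the 10 fell. Without EGFP replicate 3 or any 1 EVI1 array, 1 of the 10 was called, where 2289 to 2672 of all 19937 genes were.
None of 7 ID and E protein genes beside Id2 passed with limma, where 18.2% of all genes were called. Of the 7, 3 had an unadjusted p under 0.05, and the median was 0.24. Id1 differed by 0.64 ± 0.20 (adjusted p = 0.0679) and rose with the replicate block (0.0276), the sign opposite to that of Id2. The E protein gene Tcf12 differed by -0.38 ± 0.13 (0.0803), Lyl1 by 0.34, and Id3, dim in both groups, by 0.27. Without EGFP replicate 2, 3 of the 7 were called, where 4098 of all 19937 genes were.

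Other regulators of monocytes and granulocytes were higher more often than lower. Of 20 measured, 9 rose, 2 fell and 9 did not pass, with a median of 0.24. The share called was 55.0%, against 18.2% of all genes and 30.0% of genes within the level range of the 9 factors. Irf1, an interferon-induced factor, rose by 2.31 ± 0.20 (limma adjusted p = 0.000243). Stat3, which carries granulocyte colony-stimulating factor signals to Cebpb, rose by 1.07 ± 0.11, the retinoic acid receptors Rara by 0.97 ± 0.13 and Rarg by 0.81 ± 0.13, and their partner Rxra by 1.13 ± 0.17. The nuclear receptor Nr4a1 rose by 0.94 ± 0.14, Zeb2 by 0.62, Klf5 by 0.64 and Bach1 by 0.51, while Myc (-2.00 ± 0.30) and Meis1 (-0.66 ± 0.17) fell. Klf4, a monocyte factor downstream of PU.1, differed by -0.11 ± 0.12, and Egr1 (-0.50) and Egr2 (-0.51), which GFI1 restrains, did not pass. Without EVI1 replicate 3, 7 of the 20 were called, where 2289 of all 19937 genes were.

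Genes linked to these factors by earlier work were lower more often than higher. Of 25 granulocyte genes linked to C/EBP factors 9 fell, 4 rose and 12 did not pass, with a median of -0.32. Those called were 52.0%, against 18.2% of all genes and 30.0% of genes within the level range of the 9 factors. The primary granule genes Mpo (-2.55 ± 0.26), Elane (-2.29 ± 0.18), Ctsg (-2.55 ± 0.23) and Prtn3 (-0.96 ± 0.13) fell, as did Ms4a3, a membrane protein gene of granulocyte and monocyte progenitors (-2.32 ± 0.22), Fcnb, a ficolin of early neutrophils (-1.27 ± 0.30), and the neutrophil collagenase gene Mmp8 (-3.45 ± 0.61). The 4 that rose were Ly6g, a surface marker of mature neutrophils (2.59 ± 0.36), the gelatinase gene Mmp9 (1.92 ± 0.27), Padi4, which encodes a histone-citrullinating enzyme (1.25 ± 0.14), and haptoglobin (Hp), an acute-phase gene bound by C/EBP factors in the liver (1.06 ± 0.18). Ly6g and Mmp9 were dim in EGFP arrays, so their fold changes can be understated. Among the other genes of the list, Ngp (-2.87 ± 0.46) and Cd177 (-0.80 ± 0.22) fell. Ltf differed by -1.40 ± 0.50 (limma adjusted p = 0.0991) and fell with the replicate block (0.0295). Camp differed by -0.32 ± 0.14 (limma adjusted p = 0.157) and passed in neither fit. Csf3r, the receptor for granulocyte colony-stimulating factor and a C/EBPα target, differed by 0.52 ± 0.16 (limma adjusted p = 0.0626) and rose with the replicate block (0.0315). With the block 12 of the 25 fell and 5 rose. The neutrophil marker list, whose 6 genes have 1 up and 1 down, had array means of 7.57 to 8.31 in EVI1 and 8.14 to 9.17 in EGFP arrays. All 6 are also among the 25 granulocyte genes.

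Of 24 measured myeloid genes linked to PU.1, 11 fell, 4 rose and 9 did not pass, with a median of -0.89. Called genes made up 62.5% of this list, against 18.2% of all genes and 30.0% of genes within the level range of the 9 factors. With the replicate block 15 were lower and 6 higher. Csf1r, the macrophage growth factor receptor and a direct PU.1 target, had 8.99 ± 0.60 in EVI1 and 10.15 ± 0.18 in EGFP arrays (SD, n = 3) and fell by 1.16 on the log2 scale (limma adjusted p = 0.0199). The Fc receptors Fcgr2b (-2.15 ± 0.15) and Fcgr3 (-2.88 ± 0.24), the factor XIII subunit F13a1 (-1.75 ± 0.16), the kinase Btk (-0.93 ± 0.11) and the integrin chain Itgb2 (-1.59 ± 0.20) fell. Those that rose were Ctss (1.00), Cd68 (1.16), Mpeg1 (1.21) and Tlr4 (0.90). Itgam differed by -1.03 ± 0.34 and Adgre1 by -1.08 ± 0.37, and neither passed; with the block both fell (adjusted p = 0.00238 and 0.00233).

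Other cell markers differed in direction from list to list. Over all genes 18.2% were called, 9.06% higher and 9.18% lower in EVI1. All 6 progenitor markers were above the dim level in both groups; 5 fell (Cd34, Cdk6, Flt3, Kit and Cd93), and array means were 8.54 to 8.60 in EVI1, against 9.74 to 9.89 in EGFP arrays. Of 5 measured monocyte markers 4 fell, with array means of 8.11 to 9.07 in EVI1 and 9.75 to 10.3 in EGFP. All 5 are also in the list linked to PU.1, so they are not further evidence. All 6 mast cell and basophil markers fell, at 9.41 to 9.59 in EVI1 and 10.9 to 11.3 in EGFP. Kit is in both this list and the progenitor list. In the erythroid list 3 of 5 markers rose, at 8.13 to 8.37 in EVI1 and 7.54 to 7.70 in EGFP. Stromal and endothelial markers had 2 of 6 up (Cdh5 and Kdr, both dim in EGFP arrays) and 1 down, at 7.45 to 7.82 in EVI1 and 6.86 to 7.04 in EGFP. The part of any of these in the differences of the 9 factors was not tested. None of 5 eosinophil markers passed by limma without the block, 3 had an unadjusted p under 0.05, and 4 were lower with it; 1 of 4 megakaryocyte markers rose and 1 fell, and 1 of 6 T and NK cell markers fell, with 4 of those 6 dim in both groups.

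**Figure D4:**
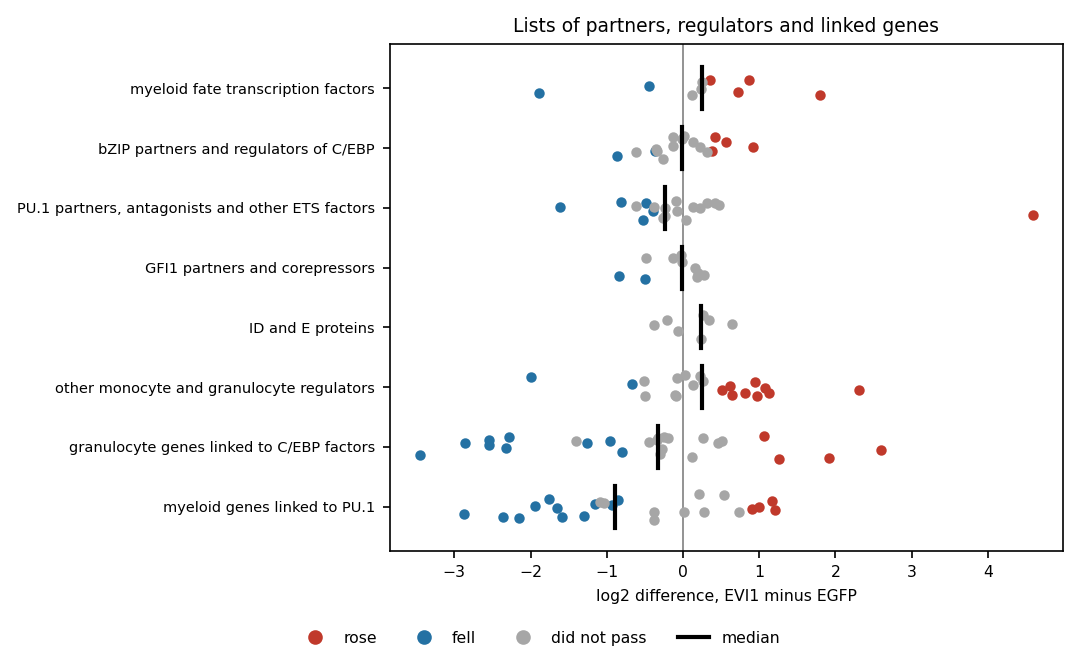
Log2 difference, EVI1 minus EGFP, of every measured gene of the 9 factors and of 7 lists of partners, regulators and linked genes, coloured by call, with a black line at each median. The medians run from -0.89 for genes linked to PU.1 to 0.25 for the 9 factors, and Spic lies far to the right at 4.58.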

How the data were processed

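Expression was measured on 6 single-colour arrays of total RNA. The deposited values are log2 intensities, made by the authors with RMA, per the submitters' processing notes. For its version and settings, nothing was given in the sources used here. RMA forces similar array distributions, so a change of total RNA per cell would not appear. No detection calls or probe-level signals were used, and the number of arrays limits the precision. Of 34760 probe sets 21640 carried 1 gene symbol, 1321 several and 11799 were unnamed here. Each gene took its probe set with the highest mean, which gave 19937 genes, and the 9 factors have 1 each. Differences were tested with limma 3.58.1 in R 4.3.3 (lmFit, eBayes), two-sided, without a block, and the fit was tested on simulated data. Replicate numbers pair the arrays by their correlated deviations from group means (r = 0.491, 0.269 and 0.197 over genes), a pairing seen in the data and not stated in the labels, and the p-values measure the spread between these arrays only. Exact permutation tests were used for single values. Alternatives were the block, the mean of probe sets, 2 filters on dim genes, quantile normalization, median centring, trended robust variance, array weights and leaving out each array.

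The factors, lists and tests were chosen with earlier results of these data known. Lists came from general knowledge; some listed genes were not analysed here. Named were Mecom, the 9 factors, the 4 genes with the smallest p in each of the 7 partner, regulator and linked lists (marker lists are given mainly by counts) and the 3 most alike genes per called factor, leaving out unnamed, olfactory and small RNA genes. Other genes were named after their values were seen: Trib2, Cop1, Junb, Batf3, Cbfb, Etv6, Irf4, Irf8, Gata1, Gata2, Tal1, Elf4, Jun, Kdm1a, Rcor1, Rarg, Rxra, Zeb2, Klf4, Klf5, Bach1, Myc, Meis1, Egr1, Egr2, Prtn3, Fcnb, Mmp8, Ly6g, Mmp9, Padi4, Hp, Ngp, Cd177, Ltf, Camp, Csf3r, Csf1r, Itgb2, Ctss, Cd68, Mpeg1, Tlr4, Itgam, Adgre1 and the markers.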

Additional observations from a re-analysis of the deposited data

How the results depend on the processing

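With all 6 arrays kept, each of the 9 factors kept its direction and its side of the threshold under 8 alternatives, except Cebpb with a trended, robust variance (0.35, adjusted p = 0.0825). With the block and with median centring Cebpb was just under the threshold (limma adjusted p = 0.0498 and 0.0495). The replicate block changed no call among the 9 and gave 4361 genes called; calls were then 9 in the PU.1 partner list, 3 in the GFI1 list, 1 in the ID and E protein list (Id1), 17 among granulocyte genes and 21 among genes linked to PU.1, against 6, 2, 0, 13 and 15 without it, and the counts of the C/EBP partner list (6) and other regulators (11) were the same. Leaving out 1 array gave 2289 to 4098 genes called, 1179 to 2037 higher and 1110 to 2061 lower, the lowest counts without EVI1 replicate 3. The factors called higher then numbered 1 to 3 and those lower 1 to 2. Differences ranged over 0.32 to 0.40 for Cebpb, 0.62 to 1.10 for Cebpd, 0.60 to 0.83 for Spi1, -0.53 to -0.38 for Gfi1 and -0.87 to -0.30 for Mecom, which was called without EGFP replicate 1. Calls ranged over 2 to 5 in the C/EBP partner list, 3 to 10 in the PU.1 partner list, 1 to 2 in the GFI1 list, 0 to 3 in the ID and E protein list and 7 to 12 among other regulators. Restricting to genes over the median level left 3 calls in the C/EBP partner list and 1 in the ID and E protein list. In that fit 3304 genes were called, and the list sizes left in it are not given here. Genes under the median level, Trib1, Batf3 and Junb among them, were not tested in that fit. Array weights gave 2 in the ID and E protein list, where 4215 of all genes were called. No result changed direction while called. For the calls lost with 5 arrays, fewer samples are part of the alternative itself; otherwise the cause was not tested. Dim signal limits Spib in EGFP arrays and Mecom in both groups, and 3 arrays a group limit the small differences of the C/EBP genes.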
